A study of Mus musculus and Homo sapiens with 12 samples.

Results

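The genes described here encode the collagen chains other than those of collagen VI, in a mouse and a human model of pancreatic ductal carcinoma in the liver. They were chosen by symbol alone, as every row whose name in capitals is COL, a number, A and a number, leaving out names that start with COL6A. This gave 38 of the 23201 genes in the authors' deposited table for the mouse model and 32 of the 18190 genes in the authors' deposited table for the human model, and each of them had an adjusted p. RNA was sequenced from 12 samples in 4 groups of 3 biological replicates. KPC LM2 is a liver metastatic derivative of the 2nd generation of KPC, a mouse pancreatic cancer line, and KPC is its parental line. PANC1 LM3 is the derivative of the 3rd generation of PANC1, an established human pancreatic carcinoma line, and PANC1 is its parental line. All 4 groups carry the genotype label WT, and each sample followed injection of 500000 cells into the spleen, with RNA taken from liver tumours on day 21. Strain, age and sex of the host animals are not given in the sources used here, and each group rests on 1 cell line. Per the labels, the source is the tumour, while the sample titles name cells, so the share of host tissue in the RNA is not settled by the labels. In such bulk samples fewer cells of a type and less RNA per cell cannot be told apart.

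Each model came as 1 table of the authors' own comparison of its 2 groups, with the average of its normalised counts (called its mean count), a log2 fold change, its standard error (SE) and a Wald test per gene, and with no value per library. The depth of each sample is therefore unknown, and no value per sample or per group can be given. Which group forms the numerator of a fold change is not stated by the columns. Signs are therefore printed as they stand in the tables, and no sign is tied to the selected or to the parental line. A gene is called where its adjusted p was under 0.05, adjusted over all genes of its table, and errors after ± are the authors' SE, also on the log2 scale.

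Collagens are trimers of chains that wind around each other along repeats of glycine followed by a pair of other residues, often proline and hydroxyproline. Fibrillar chains build the cables of connective tissue, and in pancreatic carcinoma fibroblasts of the stroma are a main source of the collagen I and III fibrils. Collagen IV chains form the sheet of basement membranes, FACIT chains sit on the surface of fibrils, and transmembrane chains stay anchored in the cell that makes them. Carcinoma cells themselves make basement membrane collagens.

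Promoter sequences are shown for the 3 mouse genes called positive in KPC, Col4a5, Col5a1 and Col27a1. They are RefSeq windows of 300 bases on GRCm38.p6, another build than the mm39 named in the submitters' processing notes, from 250 bases before the annotated start to 50 bases after it. Capitals mark the CCAAT box and the GC box GGGCGG, each searched on both strands, so that ATTGG and CCGCCC are the same boxes on the other strand. Human promoters were not analysed here.
Col4a5 (chrX:141475169-141475468, plus strand): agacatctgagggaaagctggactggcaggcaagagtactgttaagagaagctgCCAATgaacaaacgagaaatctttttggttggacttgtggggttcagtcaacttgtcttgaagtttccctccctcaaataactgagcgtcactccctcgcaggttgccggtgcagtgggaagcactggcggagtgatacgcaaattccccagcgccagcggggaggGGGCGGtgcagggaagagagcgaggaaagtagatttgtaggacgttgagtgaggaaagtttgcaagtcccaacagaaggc
Col5a1 (chr2:27886175-27886474, plus strand): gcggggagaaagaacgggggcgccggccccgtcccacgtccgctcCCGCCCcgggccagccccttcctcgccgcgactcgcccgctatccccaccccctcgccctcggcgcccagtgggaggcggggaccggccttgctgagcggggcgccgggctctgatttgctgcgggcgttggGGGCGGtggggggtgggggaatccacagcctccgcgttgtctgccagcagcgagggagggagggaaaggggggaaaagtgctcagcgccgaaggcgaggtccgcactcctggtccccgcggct
Col27a1 (chr4:63215162-63215461, plus strand): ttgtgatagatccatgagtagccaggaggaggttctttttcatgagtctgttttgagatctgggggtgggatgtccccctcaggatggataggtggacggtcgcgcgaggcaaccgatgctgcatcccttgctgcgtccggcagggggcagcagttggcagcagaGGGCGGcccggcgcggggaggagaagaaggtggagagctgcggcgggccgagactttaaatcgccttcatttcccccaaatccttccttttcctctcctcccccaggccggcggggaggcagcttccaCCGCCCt

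The Col4a5 window held 1 GC box and 1 CCAAT box, while those of Col5a1 and Col27a1 held 2 GC boxes each and 0 CCAAT boxes. The windows of Col4a1 and Col4a2, a pair of genes read head to head, shared 78 bases in GRCm38.p6 and held 1 and 3 GC boxes and 1 CCAAT box each. Of the 38 mouse collagen genes, 29 had a window and these had 31 windows. GGGCGG stood in 18 of the 31 windows (58.1%), against 35.7% of all 32851 RefSeq windows of the same length. CCAAT stood in 12 (38.7%), against 37.4% of all windows, TATAAA in 5 (16.1%), against 13.6%, and the AP-1 motif TGANTCA in 0 of 31, against 7.81%. Overlaps between motifs were kept, and a match is a run of letters and not a measured binding site.

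Between KPC LM2 and KPC samples, 10 of the 38 collagen genes were called, 3 positive and 7 negative. The positive calls were the fibrillar genes Col27a1 and Col5a1 and the basement membrane gene Col4a5, all of them well above the detection floor. The negative calls were the fibrillar genes Col1a1 and Col2a1, the FACIT genes Col12a1, Col14a1, Col19a1 and Col22a1, and Col28a1, and 6 of these 7 had mean counts under 64 in the authors' deposited table. Among all 20050 genes tested in KPC, 10.4% were called, 5.77% positive and 4.60% negative. The median log2 fold change of the 38 members was -1.29, beside -0.08 over all genes tested.

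**Figure D1:**
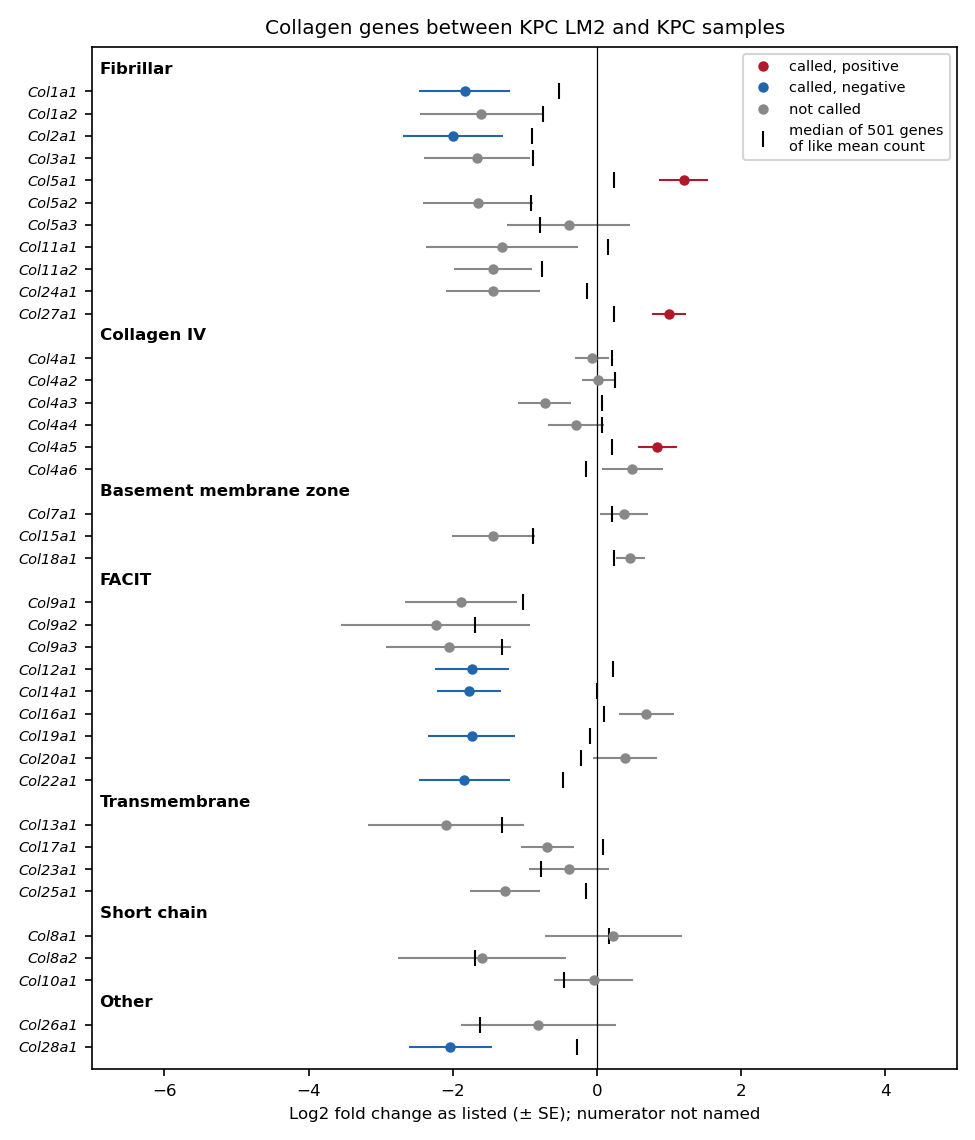
Log2 fold change as listed (x axis) of the 38 mouse collagen genes, grouped by class, with the SE as bars and the call as colour. The black tick is the running median of genes of like mean count: most fibrillar and FACIT genes lie left of 0, and their ticks lie left of 0 as well wherever the count is low.

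Levels differed widely among the mouse chains. Set per length, as mean count per kb of exon over KPC LM2 and KPC samples together, Col4a1 came first with 634, then Col18a1 with 544 and Col4a2 with 382. Col27a1 (58.4 per kb), Col7a1 (47.2), Col4a5 (31.4), Col5a1 (28.3) and Col8a1 (13.2) followed, and the other 30 members lay at or under 8.42 per kb, the value of Col16a1. The stromal fibril genes stood near the bottom, with 3.03 per kb for Col1a1, 1.74 for Col3a1 and 1.43 for Col1a2. The 3 basement membrane genes Col4a1, Col18a1 and Col4a2 were thus at least 6-fold above the next chain per length. No spread over samples can be given for these levels, so neighbours in the order were not tested against each other.

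**Figure D2:**
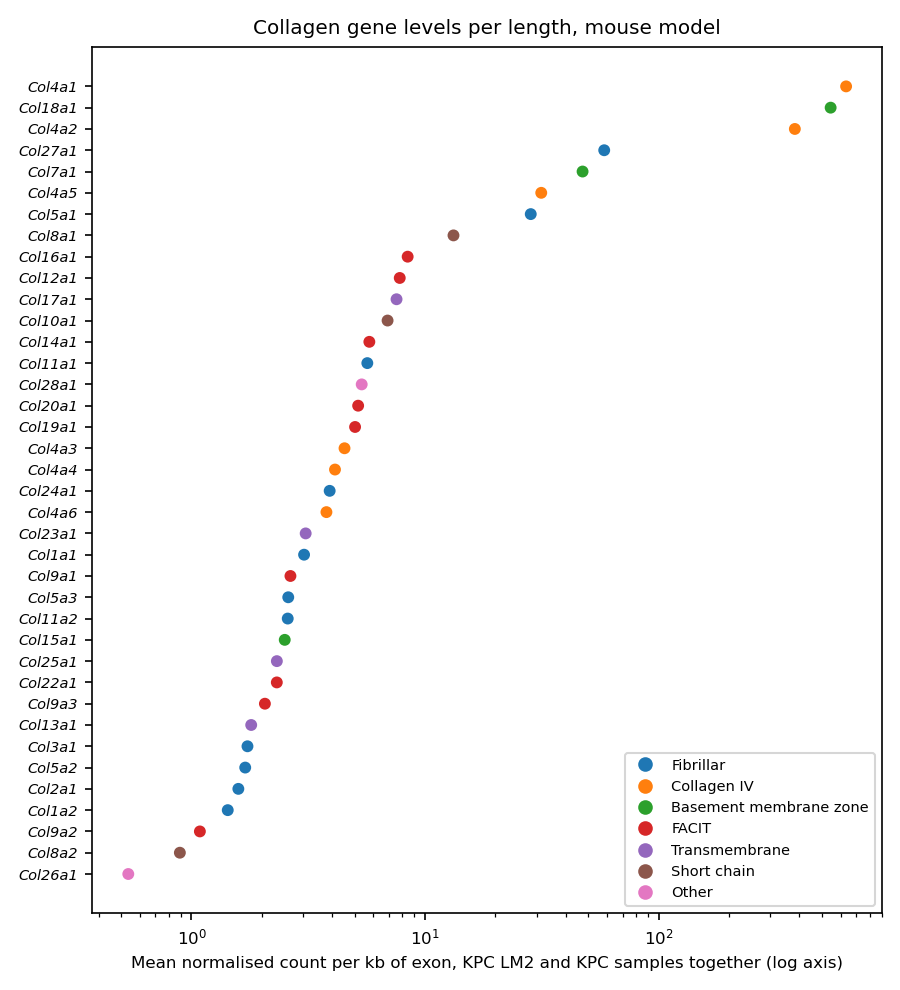
Mean normalised count per kb of exon (log axis) of the 38 mouse collagen genes over KPC LM2 and KPC samples together, with the class as colour. Col4a1, Col18a1 and Col4a2 stand at 382 to 634 per kb, and 30 members stand at 8.42 or less.

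Of the 11 fibrillar genes in KPC, 2 were called positive and 2 negative, and 7 were not called. Over all genes 5.77% were called positive and 4.60% negative. Col27a1, a fibrillar chain of developing cartilage, was listed at 1.00 ± 0.24 on the log2 scale with a mean count of 761 in the authors' deposited table (Wald test adjusted p = 0.000969). Col5a1, a chain of the collagen V that starts fibrils, was listed at 1.21 ± 0.34 with a count of 240 (adjusted p = 0.00898) in the authors' deposited table. Its partner chain Col5a2 went the other way without passing the test, at -1.65 ± 0.77 with a count of only 16.3 (adjusted p = 0.138) in the authors' deposited table. For Col1a1, a chain of the stromal fibril collagen I, the authors' deposited table listed -1.84 ± 0.63 with a count of 19.9 (adjusted p = 0.0421). The other chain of collagen I, Col1a2, stood at -1.61 ± 0.85 with a count of 17.8 and was not called (adjusted p = 0.193) in the authors' deposited table. Col3a1, another stromal fibril gene, was similar at -1.66 ± 0.73 with a count of 17.0 (adjusted p = 0.118) in the authors' deposited table. The cartilage fibril gene Col2a1 was listed at -1.99 ± 0.70 with a count of 14.7 (adjusted p = 0.0441) in the authors' deposited table. With the running median of genes of like count subtracted, Col27a1 kept its call. Col5a1, Col1a1 and Col2a1 did not (Wald test adjusted p = 0.0665, 0.258 and 0.468). Col11a1, the third fibrillar gene with a count over 64, stood at -1.32 ± 1.06 with a count of 72.1 (adjusted p = 0.405) in the authors' deposited table, so that its error was nearly as large as its value.

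Of the 6 collagen IV genes in KPC, only Col4a5 was called, beside 10.4% of all genes. The pair that builds the common basement membrane network did not differ detectably between the groups: Col4a1 was listed at -0.06 ± 0.23 with a count of 4730 and Col4a2 at 0.02 ± 0.22 with 2531 in the authors' deposited table. The 95% intervals computed from these errors ran from -0.52 to 0.40 for Col4a1 and from -0.42 to 0.45 for Col4a2, so larger differences in either direction lie outside them. Col4a5, the X-linked chain that joins either of the rarer networks, was listed at 0.84 ± 0.27 with a count of 211 (Wald test adjusted p = 0.0263) in the authors' deposited table. Its neighbour Col4a6, whose start lies 1343 bases from that of Col4a5 on the opposite strand in GRCm38.p6, stood at 0.49 ± 0.42 with a count of 30.1 in the authors' deposited table. The last pair, Col4a3 and Col4a4 of the kidney and lung network, stood at -0.72 ± 0.37 and -0.29 ± 0.39 with counts of 45.0 and 43.7 in the authors' deposited table. Neither of them passed the test, nor did Col4a6. The call of Col4a5 did not hold when all fold changes were recentred on the median of genes with a count of 64 or more, which was 0.22. It was then at 0.62 with an adjusted p of 0.111.

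The other genes of the basement membrane zone were not called in KPC, where 10.4% of all genes were called. Col18a1, whose product is cut to release endostatin, was listed at 0.47 ± 0.20 with a count of 3820 (Wald test adjusted p = 0.108) in the authors' deposited table. For Col7a1, which makes the fibrils that anchor the basement membrane to the tissue under it, the authors' deposited table gave 0.38 ± 0.34 with a count of 485. Col15a1, the relative of Col18a1, stood at -1.43 ± 0.57 with a count of 15.9 (adjusted p = 0.0821) in the authors' deposited table.

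FACIT genes had the most negative calls of any class in KPC, with 4 of 9, and 0 positive. Over all genes 4.60% were called negative, and 10.0% at counts from 16 to under 64. Col14a1, which coats collagen I fibrils, was listed at -1.78 ± 0.45 with a count of 40.5 (Wald test adjusted p = 0.00245) in the authors' deposited table. Col12a1, its close relative, was listed at -1.73 ± 0.51 with a count of 119 (adjusted p = 0.0143) in the authors' deposited table, and is the only collagen called negative in KPC with a count over 64. Col19a1 stood at -1.74 ± 0.60 and Col22a1, a chain of tissue junctions such as that of muscle and tendon, at -1.84 ± 0.64 in the authors' deposited table, with adjusted p-values of 0.0422 each. With the running median of genes of like count subtracted, Col14a1 and Col12a1 kept their calls. Col19a1 and Col22a1 did not (Wald test adjusted p = 0.0841 and 0.232). Col16a1 had the only fold change above 0.5 in the class, at 0.69 ± 0.38 with a count of 56.8 (adjusted p = 0.219) in the authors' deposited table. The 3 collagen IX genes, whose product sits on cartilage fibrils, were listed between -2.24 and -1.88 with counts of 3.36 to 13.4 in the authors' deposited table and were not called.

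Transmembrane, short-chain and remaining genes added 1 call in KPC, beside 10.4% called over all genes. Col28a1, which resembles collagen VI in its domains, was listed at -2.03 ± 0.57 with a count of 26.2 (Wald test adjusted p = 0.00945) in the authors' deposited table. The 4 transmembrane genes, among them Col17a1 of the hemidesmosome, were listed between -2.09 and -0.39 with counts up to 45.4 in the authors' deposited table, and 0 were called. Col8a1, a short chain of network type, was listed at 0.23 ± 0.95 with a count of 104 in the authors' deposited table, an error that leaves its direction unresolved.

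Negative values in KPC went with low counts, in the collagens and in the table as a whole. At a mean count under 16, all 7258 tested genes together had a median log2 fold change of -1.43, and 89.6% of them were negative. All 8 collagens in that range were negative, with a median of -1.94. Between 16 and 64 the median of the collagens stood further from that of all genes. There 17 of 20 members were negative with a median of -1.35, beside 58.6% negative and a median of -0.16 over 3025 genes. Of the 20, 5 were called negative, where the share of all genes in the range was 10.0%. The running median moved within this range, from -0.91 at the count of Col5a2 to 0.10 at that of Col16a1. The value of -0.16 is therefore not the level of each member, and part of the gap goes with count. At 64 or more, 7 of 10 collagens were positive and 3 negative, beside 26.5% negative over 9767 genes. The median of these collagens was 0.30, beside 0.22 over all genes in the range. There 3 were called positive and 1 negative, beside 10.6% and 2.11% of all genes in the range. With the running median of genes of like count subtracted, 1 positive and 3 negative calls were left, beside 2.92% and 2.73% of all genes. These were Col27a1 at 0.77 (adjusted p = 0.0257), Col12a1 at -1.96 (adjusted p = 0.00557), Col14a1 at -1.78 (adjusted p = 0.00303) and Col28a1 at -1.76 (adjusted p = 0.0413). In that setting Col1a1 was at -1.32 with an adjusted p of 0.258, Col2a1 at -1.09 with 0.468 and Col5a1 at 0.97 with 0.0665. Col19a1 was at -1.65 with 0.0841, Col22a1 at -1.37 with 0.232 and Col4a5 at 0.63 with 0.181. Col2a1 also missed the threshold when p-values were adjusted over every gene with a p (adjusted p = 0.051).

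**Figure D3:**
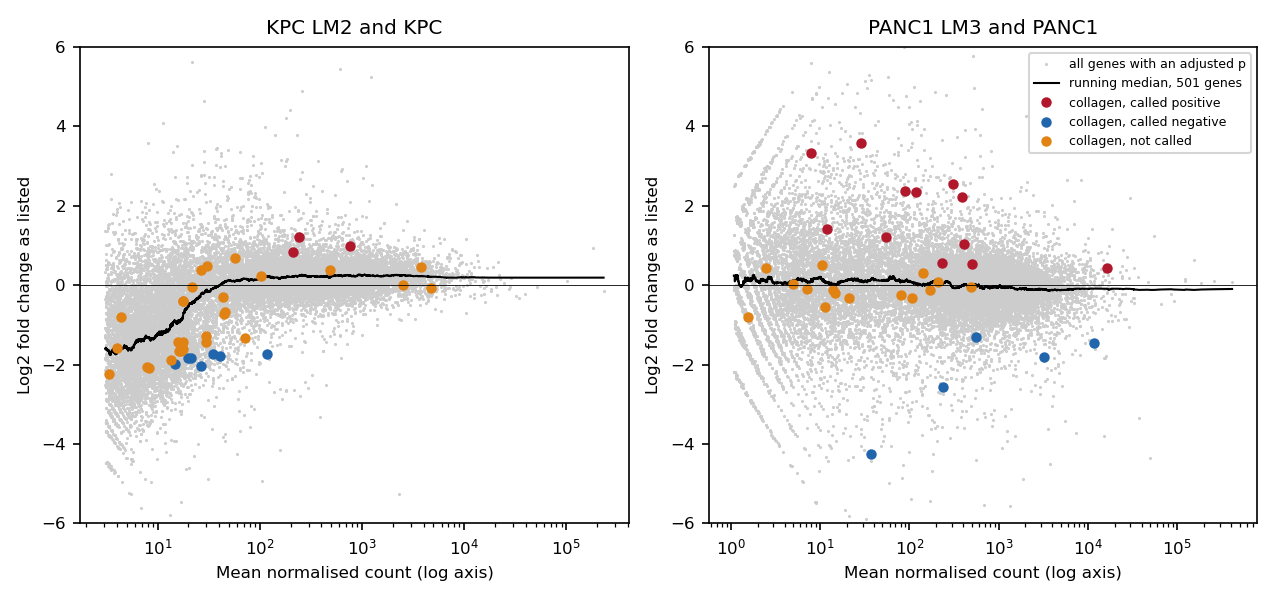
Log2 fold change as listed (y axis) against mean count (log axis) for all genes with an adjusted p (grey), with their running median (line) and the collagen genes (coloured by call), for KPC LM2 and KPC (left) and for PANC1 LM3 and PANC1 (right). Genes beyond the y axis are not drawn. In the mouse the line falls under -1 at low counts and all 7 collagens called negative lie below it, while in the human the line stays near 0.

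Markers of other cell types were low in KPC beside the epithelial keratins. Of 16 fibroblast and stellate cell markers 15 had a row, with mean counts from 3.23 to 69.8 and a sum of 252 in the authors' deposited table, while the 6 epithelial markers ran from 524 to 28158. Of these 6, Krt7 was called at 1.18 ± 0.18 and Epcam at -1.14 ± 0.28 in the authors' deposited table, and both calls held after the level trend was subtracted (adjusted p = 5.63e-06 and 6.00e-05). Of the 15 fibroblast and stellate cell markers 0 were called positive and 2 negative, beside 5.77% and 4.60% of all genes. The 2 were Reln at -1.50 ± 0.44 and Ngfr at -4.13 ± 1.02 in the authors' deposited table. Among them the counts were 7.51 for Dcn, 5.55 for Lum, 25.4 for Pdgfra and 41.4 for Acta2 in the authors' deposited table. Col1a1, Col1a2 and Col3a1 lay within that range, at 19.9, 17.8 and 17.0. The median log2 fold change of the fibroblast list was -1.40, beside -1.84 for Col1a1, -1.61 for Col1a2 and -1.66 for Col3a1, and the part of host fibroblasts in these values was not tested. Endothelial markers had a median of -1.23 with counts up to 30.7, leukocyte markers -1.27 with counts up to 33.1 and hepatocyte markers -1.58 with counts up to 26.7, as summarised from the authors' deposited table. Calls in these lists were 0 of 10, 1 of 7 and 0 of 6 tested genes, the call being Adgre1 at -2.88 ± 0.75 in the authors' deposited table. With the level trend subtracted the medians were -0.57 for fibroblast, -0.25 for endothelial, 0.18 for leukocyte and -0.17 for hepatocyte markers. In that setting Ngfr (adjusted p = 0.0857) and Adgre1 (adjusted p = 0.141) were no longer called, and 1 fibroblast marker, Reln, was.

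Between PANC1 LM3 and PANC1 samples, 17 of the 32 collagen genes were called, 12 positive and 5 negative. The collagen IV genes COL4A1 and COL4A2 had the smallest adjusted p among the positive calls, and the fibrillar genes COL5A2 and COL11A1 among the negative ones. Calls were common in this table, at 52.5% of 17838 genes, 26.0% positive and 26.5% negative. The share of collagens called, 53.1%, was close to that of all genes, so the number of calls is no result about the collagens. The median of the 32 members was 0.06 on the log2 scale, beside 0.00 over all genes tested.

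**Figure D4:**
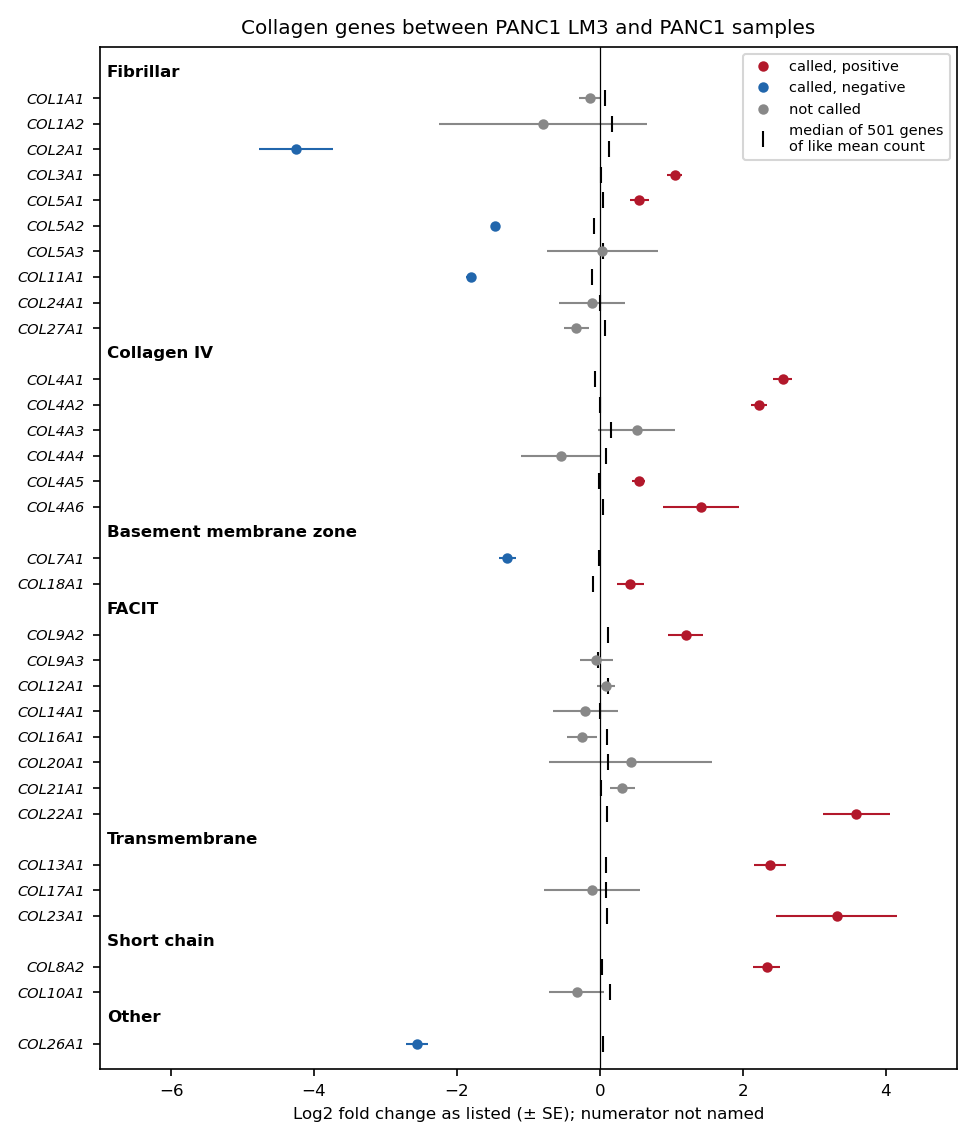
Log2 fold change as listed (x axis) of the 32 human collagen genes, grouped by class, with the SE as bars, the call as colour and the running median of genes of like mean count as a black tick. COL4A1, COL4A2, COL8A2, COL13A1, COL22A1 and COL23A1 lie above 2, and COL2A1 and COL26A1 lie below -2.

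Collagen IV had 4 positive calls of 6 in PANC1 and 0 negative, beside 26.0% positive and 26.5% negative over all genes. COL4A1 was listed at 2.56 ± 0.13 with a mean count of 310 (Wald test adjusted p = 2.94e-83) in the authors' deposited table, a 5.90-fold difference. COL4A2, its partner in the same trimer, was listed at 2.23 ± 0.11 with a count of 393 (adjusted p = 1.81e-82) in the authors' deposited table, a 4.68-fold difference. COL4A5 was listed at 0.55 ± 0.09 with a count of 502 (adjusted p = 4.19e-09) in the authors' deposited table. COL4A6 stood at 1.42 ± 0.53 with a count of 11.9 (adjusted p = 0.0164) in the authors' deposited table. For COL4A3 and COL4A4 the authors' deposited table gave 0.52 ± 0.54 and -0.55 ± 0.56 with counts of 10.6 and 11.4, neither of them called. The chains of the common network thus had nearly the same fold change, larger than that of COL4A5 by many times the SE, while those of the kidney and lung network had errors as large as their values.

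Of the 10 fibrillar genes in PANC1, 2 were called positive and 3 negative, beside 26.0% and 26.5% of all genes. Chains of 1 collagen went different ways. COL5A2 was listed at -1.47 ± 0.05 with a mean count of 11735 (Wald test adjusted p = 1.13e-180) in the authors' deposited table. COL5A1, the chain that joins it in collagen V, was listed at 0.55 ± 0.14 with a count of 233 (adjusted p = 0.000142) in the authors' deposited table. COL11A1, a related chain that can stand in for those of collagen V, was listed at -1.81 ± 0.06 with a count of 3193 (adjusted p = 5.18e-179) in the authors' deposited table. COL3A1, which lies next to COL5A2 in the mouse and human genomes, was listed at 1.05 ± 0.11 with a count of 405 (adjusted p = 6.84e-22) in the authors' deposited table. Neighbours in the genome thus had called fold changes of opposite sign. COL2A1, the cartilage fibril gene, had the most negative value of all collagens, at -4.26 ± 0.52 with a count of 36.8 (adjusted p = 1.90e-15) in the authors' deposited table. COL1A1 was not called, at -0.13 ± 0.16 with a count of 173, and COL1A2 was almost undetected, with a count of 1.56, in the authors' deposited table. COL27A1, called positive in the mouse, stood at -0.33 ± 0.18 with a count of 107 (adjusted p = 0.106) in the authors' deposited table.

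The genes of the basement membrane zone split in PANC1. COL7A1 was listed at -1.29 ± 0.12 with a mean count of 558 (Wald test adjusted p = 5.00e-28) in the authors' deposited table. COL18A1, with a count of 16310, was listed at 0.43 ± 0.19 (adjusted p = 0.0472) in the authors' deposited table, just under the threshold.

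In PANC1, 2 of 8 FACIT genes and 2 of 3 transmembrane genes were called, all of them positive. Over all genes 26.0% were called positive and 26.5% negative. COL22A1 was listed at 3.59 ± 0.47 with a mean count of 28.7 (Wald test adjusted p = 1.07e-13) and COL9A2 at 1.20 ± 0.25 with 54.9 (adjusted p = 4.70e-06) in the authors' deposited table. The other 6 FACIT genes were not called and lay between -0.24 and 0.43 in the authors' deposited table. Among them COL9A3, which joins COL9A2 in collagen IX, was listed at -0.05 ± 0.23 with a count of 496, and COL12A1 at 0.09 ± 0.13 with 209.7 in the authors' deposited table. COL13A1, a transmembrane chain found at cell junctions and at the synapse of nerve and muscle, was listed at 2.38 ± 0.22 with a count of 89.0 (adjusted p = 2.90e-25) in the authors' deposited table. COL23A1, of the same class, stood at 3.32 ± 0.85 with a count of 7.82 (adjusted p = 0.000254), while COL17A1 was at -0.11 ± 0.68 with 7.12 in the authors' deposited table. Because a group at 0 cannot be seen in the table, the fold changes of COL22A1, COL23A1 and COL2A1 are fitted values and no bounds.

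Of the remaining human genes, COL8A2, a short chain of the membrane under the corneal endothelium, was listed at 2.34 ± 0.19 with a mean count of 119 (Wald test adjusted p = 5.65e-33) in the authors' deposited table. COL26A1 was listed at -2.55 ± 0.15 with a count of 241 (adjusted p = 7.75e-60) in the authors' deposited table. COL10A1, the short chain of growing cartilage, was not called at -0.32 ± 0.39 in the authors' deposited table. Fold changes in the human table moved less with level than in the mouse table. The median over all genes was 0.09 at counts under 16, 0.12 from 16 to under 64 and -0.03 at 64 or more. Even so, all 12 positive and 5 negative collagen calls held after the running median was subtracted (26.3% and 25.5% of all genes), when COL27A1 was called in addition at -0.41 (adjusted p = 0.0408).

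Other cell markers of the human table were read as human transcripts only, and how reads of the animal host were treated is not given in the sources used here. Of 16 fibroblast and stellate cell markers 9 had a row, with 3 called positive and 0 negative, beside 26.0% and 26.5% of all genes. The 3 were HGF at 3.26 ± 0.10 with a count of 615, TAGLN at 1.27 ± 0.25 and NGFR at 1.08 ± 0.41 in the authors' deposited table. The 6 markers not called had mean counts of 1.37 for PDGFRA, 3.14 for LUM, 11.0 for PDGFRB, 27.9 for ACTA2, 58.7 for RGS5 and 94.7 for THY1 in the authors' deposited table. Of the 6 epithelial markers 5 were called, beside 52.5% of all genes. These were KRT8 at -4.35 ± 0.06, KRT18 at -3.35 ± 0.05, KRT19 at -3.79 ± 0.05 and CDH1 at -3.92 ± 0.10 against EPCAM at 0.97 ± 0.10, and KRT7 was not called at 0.09 ± 0.26, in the authors' deposited table. The part of these markers in the collagen values was not tested. Endothelial, leukocyte and hepatocyte markers had 3, 5 and 4 rows, and 52.5% of all genes were called. The calls among these markers were CDH5 at -4.09 ± 0.95, CD68 at 1.91 ± 0.07, ITGAM at -0.92 ± 0.34 and CPS1 at -1.45 ± 0.18 in the authors' deposited table.

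A total of 31 collagen genes had a row in both tables, and 4 of them were called in both. The share of all genes called in both was not computed. The 4 were COL5A1 and COL4A5, positive in both tables as listed, COL2A1, negative in both, and COL22A1, listed at 3.59 ± 0.47 in PANC1 and at -1.84 ± 0.64 in KPC in the authors' deposited tables. After the level trend was subtracted, these 4 lost their calls in KPC. Their Wald test adjusted p was then 0.0665 for COL5A1, 0.181 for COL4A5, 0.468 for COL2A1 and 0.232 for COL22A1. Whether both tables put the same kind of line in the numerator is not given. A difference between the models was therefore counted only where it passed an adjusted p of 0.05 both with the signs as listed and with the signs of one table turned, in a test of the difference over its combined SE adjusted over the 12777 genes shared. By that rule 8 of the 31 collagens differed between PANC1 and KPC, beside 13.4% of all shared genes. The difference was 2.62 ± 0.27 for COL4A1 and 2.21 ± 0.25 for COL4A2, PANC1 minus KPC with signs as listed (adjusted p = 2.20e-20 and 1.12e-16, and 1.76e-18 and 4.16e-17 with one table turned). COL23A1 differed by 3.71 ± 1.01, COL7A1 by -1.67 ± 0.36 and COL2A1 by -2.26 ± 0.87. COL12A1, COL1A1 and COL14A1 differed by 1.82 ± 0.53, 1.70 ± 0.65 and 1.57 ± 0.64, each near 0 in PANC1 and negative in KPC as listed. With the KPC signs turned, the differences of these 3 genes changed direction, to -1.65, -1.97 and -1.98 with the same SE, so only their presence and not their direction is free of the sign convention. The other 5 kept their direction, at 2.50 for COL4A1, 2.24 for COL4A2, 2.93 for COL23A1, -0.92 for COL7A1 and -6.25 for COL2A1. COL4A5 and COL5A1 did not pass with the signs as listed, at -0.30 ± 0.29 and -0.66 ± 0.37 (adjusted p = 0.446 and 0.154), and passed with the KPC signs turned, at 1.39 and 1.76 (adjusted p = 1.64e-05 and 2.16e-05). COL22A1 differed by 5.43 ± 0.79 with the signs as listed (adjusted p = 2.15e-10) and by 1.75 with the KPC signs turned (adjusted p = 0.0782). For COL4A5, COL5A1 and COL22A1 the outcome therefore rests on the signs.

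**Figure D5:**
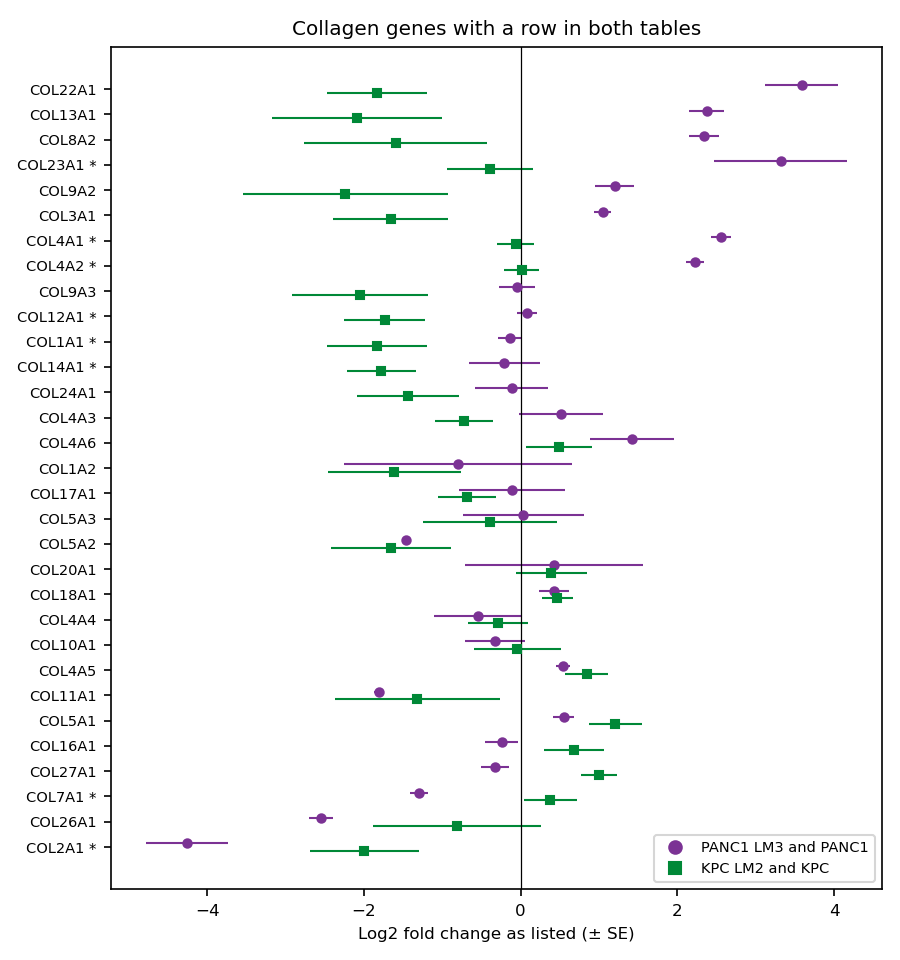
Log2 fold change as listed, with SE, of the 31 collagen genes with a row in both tables, for PANC1 LM3 and PANC1 (circles) and KPC LM2 and KPC (squares), ordered by the difference. A star marks the 8 genes that differed between the models with either sign convention, COL4A1 and COL4A2 among them.

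Among genes that make, export and trim collagen, each call in KPC was positive. Of 25 genes of chain modification, folding and export, 4 were called positive and 0 negative, beside 5.77% positive over all genes and 10.6% at counts of 64 or more, where 21 of the 25 lay. The median was 0.33, beside -0.08 over all genes and 0.22 over genes with a count of 64 or more. They were P3h4, of the lysyl hydroxylase complex, at 0.99 ± 0.23, the lysyl hydroxylase Plod3 at 0.74 ± 0.19, the prolyl hydroxylase subunit P4ha1 at 0.74 ± 0.24 and the export receptor Mia3 at 0.60 ± 0.18 in the authors' deposited table. Serpinh1, the collagen chaperone Hsp47, stood at 0.00 ± 0.19 with a mean count of 1331 in the authors' deposited table. Of 15 trimming and cross-linking genes, 2 were called positive and 0 negative, both of them enhancers of procollagen cleavage. These were Pcolce2 at 1.02 ± 0.19 (Wald test adjusted p = 1.42e-05) and Pcolce at 0.80 ± 0.21 in the authors' deposited table. The lysyl oxidase gene Lox, with a count of only 9.64, was at -0.98 ± 0.90 in the authors' deposited table. After the level trend was subtracted, P3h4 at 0.77 (adjusted p = 0.0226) and Pcolce2 at 0.79 (adjusted p = 0.00209) kept their calls, and Plod3, P4ha1, Mia3 and Pcolce did not. In that setting the procollagen protease Bmp1, listed at -0.36 ± 0.19 in the authors' deposited table, was called negative at -0.59 (adjusted p = 0.0429). None of 11 collagen receptor genes was called in KPC, beside 10.4% of all genes, so the lack of calls is no result about the receptors. Among them were Ddr1 at 0.02 ± 0.25 with a count of 643 and Ddr2 at -0.37 ± 0.54 in the authors' deposited table. Of 14 genes whose products bind collagen fibrils or basement membranes, only Sparc, a collagen-binding glycoprotein, was called, beside the same 10.4%. It was listed at -0.85 ± 0.19 with a count of 1408 in the authors' deposited table.

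The same lists had calls on both sides in PANC1. Of the 25 modification and export genes, 9 were called positive and 13 negative, beside 26.0% and 26.5% of all genes. Their median was -0.14, beside 0.00 over all genes. Isoenzymes went different ways. The prolyl hydroxylase subunit P4HA2 was at 1.26 ± 0.08 and P4HA1 at -0.42 ± 0.07, with their common partner P4HB at -0.69 ± 0.05, in the authors' deposited table. Among lysyl hydroxylases PLOD2 was at -1.33 ± 0.08 and PLOD1 at -0.96 ± 0.07 against PLOD3 at 0.64 ± 0.07 in the authors' deposited table. The galactosyltransferase COLGALT2 was at 2.35 ± 0.21 and COLGALT1 at -0.91 ± 0.06, and the chaperone of lysyl hydroxylase FKBP10 was at 0.62 ± 0.05, in the authors' deposited table. SERPINH1 was at -0.14 ± 0.06 (Wald test adjusted p = 0.0495) in the authors' deposited table, and at -0.04 with an adjusted p of 0.650 after the level trend was subtracted. In that setting P3H3 and P3H4 also lost their calls (adjusted p = 0.0590 and 0.133), and MIA3 was called at 0.14 (adjusted p = 0.0493).

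Of the 15 trimming and cross-linking genes in PANC1, 5 were called positive and 4 negative, a count near the 52.5% called over all genes and thus no result about the list. Among lysyl oxidases LOXL1 was at 1.43 ± 0.15, LOX at 1.50 ± 0.34 and LOXL3 at 0.94 ± 0.25, while LOXL2 was at -1.66 ± 0.07 and LOXL4 at -1.48 ± 0.12, in the authors' deposited table. The transglutaminase TGM2 was at 0.83 ± 0.07 in the authors' deposited table. Called procollagen proteases had both signs, and for ADAMTS3, ADAMTS14 and TLL2 the authors' deposited table gave 1.02 ± 0.34, -1.87 ± 0.52 and -1.13 ± 0.45. Collagen receptors had 5 positive calls and 0 negative among the 9 with a row, beside 26.0% positive over all genes. They were the integrin subunit genes ITGA10 at 2.64 ± 0.15, ITGA2 at 0.75 ± 0.06, ITGB1 at 0.43 ± 0.06 and ITGA1 at 0.88 ± 0.30, and the collagen III receptor gene ADGRG1 at 1.24 ± 0.11, in the authors' deposited table. DDR2 was not called at -0.06 ± 0.15 in the authors' deposited table. Of 11 partner genes with a row 4 were called positive and 5 negative, beside 26.0% and 26.5% of all genes. The nidogen gene NID2, whose product links laminin to collagen IV, was at 3.26 ± 0.39 and its relative NID1 at -1.07 ± 0.06 in the authors' deposited table. The fibronectin gene FN1 was at 0.78 ± 0.14, the agrin gene AGRN at 0.65 ± 0.17 and the biglycan gene BGN at 1.08 ± 0.35 in the authors' deposited table. The thrombospondin gene THBS1 was at -2.08 ± 0.09, the matrilin gene MATN2 at -2.60 ± 0.29, SPARC at -1.51 ± 0.08 and the perlecan gene HSPG2 at -0.80 ± 0.18 in the authors' deposited table. SPARC was the only partner gene called in both tables, negative as listed in each.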

How the data were processed

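RNA was prepared with a total RNA kit and sequenced from TruSeq libraries, per the labels' protocols. The submitters' processing notes name alignment with STAR 2.7.6a to the builds mm39 or hg19 among the tools used, beside featureCounts 2.0.0, DESeq2 1.24 and MultiQC 1.9. Settings, annotation, strand setting and model are not given in the sources used here. The authors deposited 1 comparison table per model. Its mean count is read as a signal, the average of counts that the authors normalised. Log2 fold changes and SE were deposited on the log2 scale. The deposited score, a Wald statistic, equalled their ratio within 9.2e-08. Deposited p-values were two-sided, with Benjamini-Hochberg adjusted values for 20050 mouse and 17838 human genes. A signed score made from the p was not used. The count test first planned needs values per library and was not run.

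Members and gene lists were chosen with earlier results of these data known. Named are all collagens called, or with a mean count of 64 or more, in either table, all collagen IV genes, and up to 4 genes per sign and list by adjusted p, with SERPINH1, DDR1, DDR2 and LOX. Further members, marker genes and isoenzymes were named after their values were seen. Exonic length is the union of GENCODE exons on GRCm38, another build than mm39. Because strand use in counting is not given, reads of overlapping genes cannot be told apart. Nothing says that replicates came from separate animals, so p-values measure the spread between these samples. Changed in turn were the threshold (adjusted p of 0.01), the fold change needed (over 1 in absolute log2), the genes adjusted over (every gene with a p), the level (a mean count of 64 or more), the centre (the median of those genes) and the level trend (a running median subtracted). Steps were tested on simulated data. Calculations ran in Python 3.11.15 with pandas 2.3.3, numpy 2.4.6 and scipy 1.17.1, and figures in matplotlib 3.10.9.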

Additional observations from a re-analysis of the deposited data

Results flagged for a closer look

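For 8 collagen genes the fold change differed between the human and the mouse model, by a test of the difference that passed with the signs as listed and with the signs of one table turned. PANC1 minus KPC on the log2 scale was 2.62 for COL4A1, 2.21 for COL4A2, 3.71 for COL23A1 and 1.82 for COL12A1. It was 1.7 for COL1A1, 1.57 for COL14A1, -1.67 for COL7A1 and -2.26 for COL2A1. With the KPC signs turned it was 2.50 for COL4A1, 2.24 for COL4A2, 2.93 for COL23A1, -0.92 for COL7A1 and -6.25 for COL2A1, and it changed direction for COL12A1 (-1.65), COL1A1 (-1.97) and COL14A1 (-1.98). In KPC, COL1A1, COL14A1, COL2A1 and COL23A1 had mean counts of 19.9, 40.5, 14.7 and 17.7 in the authors' deposited table. COL23A1 had a count of only 7.82 in PANC1, and its KPC value of -0.39 became 0.39 after the level trend was subtracted. In that setting the number of differing genes was again 8, but whether each gene named here was among them is not given. The values of COL1A1 were then -1.32 in KPC and -0.20 in PANC1, closer together than as listed.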

How the results depend on the processing

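In PANC1 the counts of 12 positive and 5 negative collagens stayed within 1.5 times under all 6 alternatives. In KPC the 3 positive calls went to 1 with an absolute log2 fold change over 1 and to 1 after the level trend was subtracted. The 7 negative calls went to 2 at an adjusted p of 0.01, to 1 among genes with a count of 64 or more and to 3 after the level trend was subtracted. Recentring moved the KPC calls the other way for the negative ones, to 10, and left 2 positive ones. The 8 differences between models went to 3 at an adjusted p of 0.01 and to 4 among genes with a count of 64 or more, where fewer genes enter by construction. Their number stayed at 8 after the level trend was subtracted, but the genes behind that number can be others and were not listed. Values of 8 collagens changed sign after the level trend was subtracted, 0 of them called in either setting. These were Col4a2 at -0.24, Col23a1 at 0.39, Col26a1 at 0.81, Col8a2 at 0.10, Col5a3 at 0.39 and Col10a1 at 0.42 in KPC, and COL12A1 at -0.029 and COL5A3 at -0.015 in PANC1. Recentring put Col4a2 at -0.20 in KPC. No paired analysis was possible because the tables hold no value per library, and for the same reason leaving out replicates and the edgeR test were not run. Low counts limit the mouse genes, of which only 10 of 38 had mean counts of 64 or more.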
